A study of Rattus norvegicus with 15 samples.

Results

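Long-chain fatty acids enter lipid synthesis only after they have been activated to acyl-CoA, and the 10 genes described here encode that activation and the later steps that build glycerolipids from it. They were 4 long-chain acyl-CoA synthetases (Acsl1, Acsl3, Acsl4 and Acsl5), the acyltransferases Gpam and Agpat2, the phosphatidate phosphatase Lpin1, the diacylglycerol acyltransferases Dgat1 and Dgat2, and the choline kinase Chka. The members were chosen by name, each through the platform's gene symbols, with earlier results of these data known. Their counts beside the shares of all probes are therefore a description, as are those of the other pathway lists. Where a gene had several probes, the one with the highest mean signal over all arrays was to be taken. All 10 were found, each with 1 probe, so that 10 of 22523 probes and 10 of 13337 named genes are described.

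In the glycerol-3-phosphate pathway GPAM attaches the first acyl chain to glycerol-3-phosphate and AGPAT2 the second, which gives phosphatidate. Lipins remove its phosphate to give diacylglycerol, from which DGAT enzymes make triacylglycerol and the choline branch, opened by choline kinase, makes phosphatidylcholine. Phosphatidylcholine is the main phospholipid of pulmonary surfactant, which alveolar epithelial type 2 (AT2) cells make and store in lamellar bodies, while the thin type 1 (AT1) cells that line the gas exchange surface make none.

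Total RNA of male rat alveolar epithelial cells (rAEC) was hybridised to Illumina RatRef-12 arrays at 5 times of primary culture: freshly isolated AT2 cells (D0), cells at D2, D4 and D6, and the AT1-like cells of D8. There were 3 arrays per day, 15 in all, and the cultures received no treatment beyond the plating that lets AT2 cells differentiate. The study speaks of separate cell purifications, but the labels tie no array to one, so p-values here measure the spread between arrays, which may in part be technical. Replicates are numbered here in accession order and are not paired across days. Replicates 1 and 2 of each day lay on slide 1, and replicate 3 lay on slide 2 (D2 and D4) or slide 3 (D0, D6 and D8).

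Values are signals after variance-stabilizing normalization (VSN), on a scale that approaches log2 for bright probes, and a probe counts as detected at a detection p below 0.01. Each array detected between 7615 and 9787 probes. The AT2 markers fell at D8 against D0 for 7 of 7 genes with a probe, among them the surfactant protein gene Sftpc (-9.48 on the log2 scale), and the AT1 markers were higher for 6 of 8, including Clic5 (4.43). Markers of other cells moved as well: 3 of 7 macrophage and leukocyte genes and 2 of 8 fibroblast genes were higher at D8, while 3 of 3 airway, 2 of 4 erythroid and 1 of 4 endothelial genes (Cldn5, -2.65) were lower. Of 5 adipocyte genes, Cfd was higher (2.83). In bulk RNA, fewer cells of a type and less RNA per cell cannot be told apart. Arrays of the same day correlated at r between 0.974 and 0.992 within slide 1 and between 0.953 and 0.976 across slides, over 6601 probes detected on all arrays.

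Most of the 10 genes were lower at D8 than at D0 and none was called higher. At an adjusted p of 0.05 (limma, Benjamini-Hochberg over 22523 probes), 6 were lower (Acsl1, Acsl3, Acsl4, Gpam, Agpat2 and Chka) and 4 were not called (Acsl5, Lpin1, Dgat1 and Dgat2). At an unadjusted p below 0.05, 7 passed, the 6 and Acsl5, all lower. Over all probes 18% were called between these days, 9.91% higher and 8.11% lower, and among the 6601 probes detected on every array 35.1% were called, 20.8% higher and 14.3% lower. The median change of the 10 genes was -1.33 on the log2 scale, against -0.02 over all probes. For 7 of the 10 the arrays of D8 and D0 did not overlap, which held for 29.5% of all probes. The limma F test over the 5 days called 5 of the 10 (Acsl3, Acsl4, Gpam, Agpat2 and Chka), with 18.2% of all probes called.

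**Figure D1:**
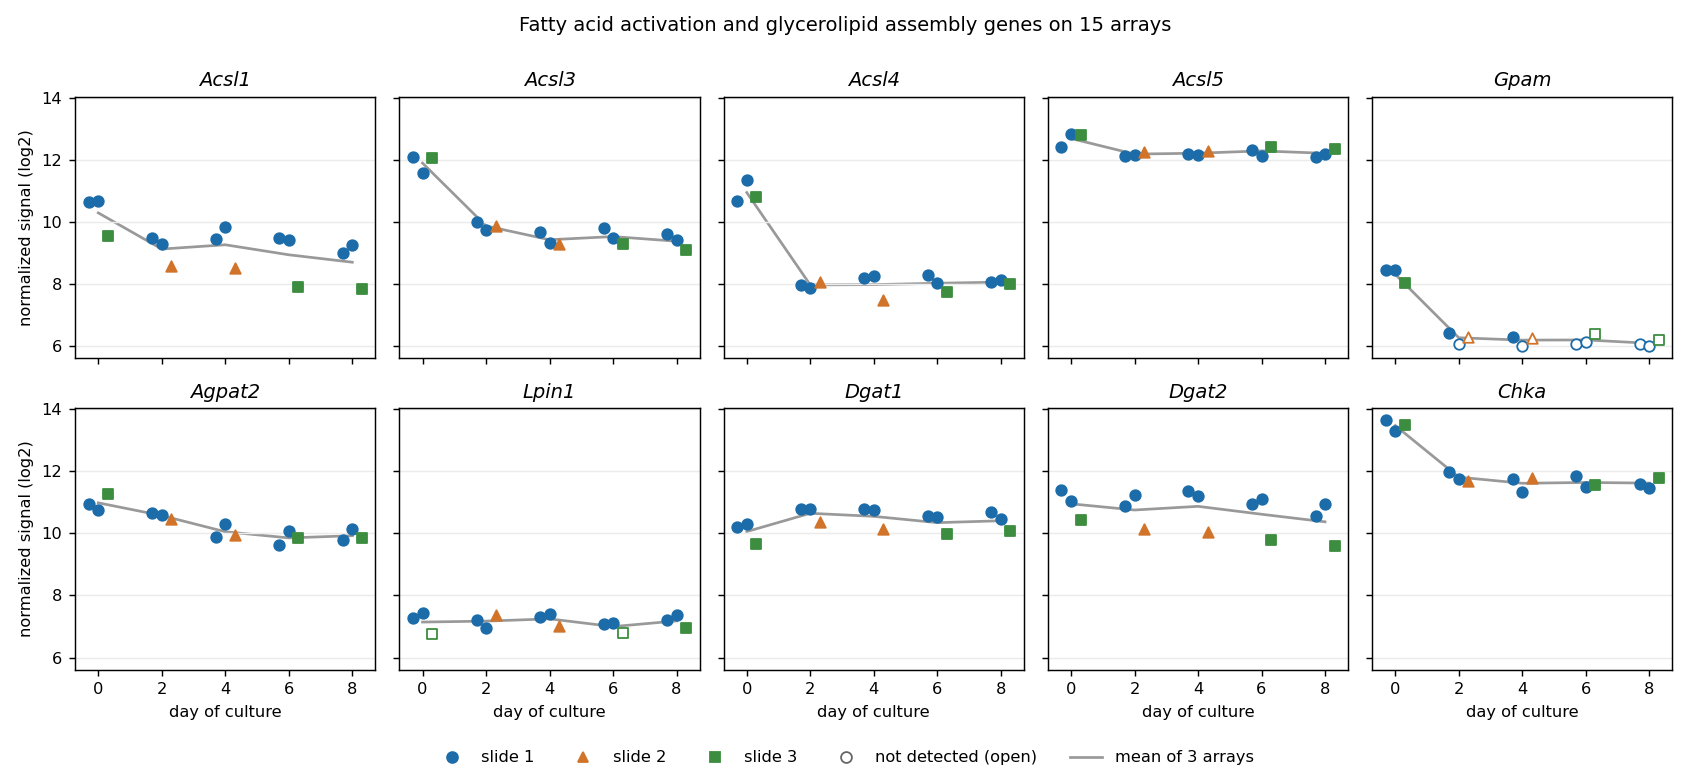
Normalized signal (log2, y axis) of each of the 10 genes on the 15 arrays against day of culture (x axis), with the marker shape giving the slide, open markers an array on which the probe was not detected, and the line the mean of 3 arrays. Acsl3, Acsl4, Gpam and Chka stand high at D0 and low at every later day, and the arrays of slides 2 and 3 lie below those of slide 1 for Acsl1, Dgat1 and Dgat2.

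Promoter sequence is shown for Acsl3, Acsl4, Gpam and Chka, the 4 genes that were already lower at D2, and for Acsl5, which was not called (RefSeq, build GRCr8). RefSeq's promoter windows of 250 bases end at the start of 1 transcript, and where the gene's annotation begins further upstream, only the bases before its outermost start are printed: 250 for Acsl3 and Acsl5, 204 for Chka, 95 for Acsl4 and 49 for Gpam. Capitals mark matches on either strand to any of 6 motifs: CCAAT, bound by NF-Y, GGGCGG, the GC box, CACGTG, an E-box, TCACNCCAC, a form of the sterol response element, TGAGTCA, the AP-1 site, and TGACGT, the core of the cAMP response element. No match overlapped one of another motif. The stretches printed were chr9:87563351-87563600, plus strand (Acsl3), chrX:110803417-110803511, minus strand (Acsl4), chr1:264176113-264176161, minus strand (Gpam), chr1:210505865-210506068, plus strand (Chka) and chr1:264294601-264294850, plus strand (Acsl5), each read 5′ to 3′ towards its gene.
Acsl3: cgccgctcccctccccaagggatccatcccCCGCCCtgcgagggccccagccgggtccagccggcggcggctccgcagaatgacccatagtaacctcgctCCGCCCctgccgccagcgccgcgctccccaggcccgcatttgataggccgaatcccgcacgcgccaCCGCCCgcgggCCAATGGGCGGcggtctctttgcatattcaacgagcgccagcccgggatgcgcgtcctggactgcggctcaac
Acsl4: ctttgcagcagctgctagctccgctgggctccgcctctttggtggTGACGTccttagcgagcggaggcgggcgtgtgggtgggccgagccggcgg
Gpam: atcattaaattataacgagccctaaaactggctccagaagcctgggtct
Chka: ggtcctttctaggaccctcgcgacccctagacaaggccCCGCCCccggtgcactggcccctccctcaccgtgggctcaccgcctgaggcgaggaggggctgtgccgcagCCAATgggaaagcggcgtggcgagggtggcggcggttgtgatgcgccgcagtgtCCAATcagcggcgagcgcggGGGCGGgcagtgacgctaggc
Acsl5: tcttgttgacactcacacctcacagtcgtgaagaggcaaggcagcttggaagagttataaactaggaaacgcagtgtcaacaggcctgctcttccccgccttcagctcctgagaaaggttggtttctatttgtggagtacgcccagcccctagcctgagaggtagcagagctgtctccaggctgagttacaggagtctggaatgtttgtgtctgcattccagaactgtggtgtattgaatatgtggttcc

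Windows of 250 bases were found for 8 of the 10 genes, the other two being Dgat1 and Dgat2, and motifs were counted over the whole windows. Of these, 201 bases for Gpam, 155 for Acsl4, 46 for Chka and all 250 for Acsl1, Agpat2 and Lpin1 lay inside the annotated gene, among them the CCAAT match of Gpam and both GGGCGG matches of Acsl4. GGGCGG occurred in the windows of Acsl3, Acsl4, Agpat2 and Chka (4 of 8), against 30.5% of 33469 promoter windows of the same length. CCAAT occurred in those of Acsl1, Acsl3, Gpam, Lpin1 and Chka (5 of 8, against 34% of all). TGACGT was present in the Acsl4 window alone (6.95% of all). The E-box was in none of the 8 (5.59% of all), and neither was the sterol response element form (0.974%) or the AP-1 site (4.05%). GC content was 72.4% for Acsl3, 70.4% for Acsl4 and 70.8% for Chka, and 51.2% for Gpam and 50.4% for Acsl5. Neither GGGCGG nor CCAAT was in all 4 windows of the genes lower at D2, and none of the 6 motifs was found in that of Acsl5. Gpam and Acsl5 lie on the same chromosome with their outermost starts 118.7 kb apart and point away from each other, and Tectb and Gucy2g are annotated between them.

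The acyl-CoA synthetases differ in the fatty acids they prefer and in where they sit in the cell. ACSL4 prefers arachidonate and other polyunsaturated fatty acids. Among the 10 genes Acsl4 had the largest fitted fall at D8, although that of Gpam is only bounded. The Acsl4 signal was 8.06, 8.12 and 7.98 on the 3 arrays of D8 and 10.67, 11.36 and 10.79 on those of D0. Every D8 array lay below every D0 array, and the difference was -2.89 (SE 0.25, adjusted p = 1.5e-06), a 7.40-fold lower signal. At D2, D4 and D6 the means were 7.96 ± 0.11, 7.97 ± 0.44 and 8.02 ± 0.27 (SD, n = 3 each), so that the level at D8 (8.05 ± 0.07) was the one already present at D2. The difference between D2 and D0 was -2.98 (adjusted p = 1.2e-06).

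ACSL3 is found on the endoplasmic reticulum and on forming lipid droplets. Acsl3 gave 9.59, 9.42 and 9.10 on the D8 arrays and 12.07, 11.56 and 12.04 on the D0 arrays. The days did not overlap, and Acsl3 was 5.73-fold lower at D8 (-2.52, SE 0.22, adjusted p = 1.6e-06). Its mean was 9.86 ± 0.12 at D2, 9.42 ± 0.21 at D4 and 9.52 ± 0.26 at D6, with 80.4% of the D8 change present at D2. All 3 arrays of D8 lay below all 3 of D2 (-0.49), but the adjusted p of that difference was 0.388. Within slide 1 the D8 to D0 difference was -2.31, and on slide 3 it was -2.94 with 1 array per day.

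ACSL1 is the synthetase that predominates in fat, liver and heart, where it feeds triacylglycerol synthesis and oxidation. Acsl1 measured 9.0, 9.24 and 7.85 at D8, against 10.64, 10.68 and 9.54 at D0. The days did not overlap, but in each the slide 3 array was more than 1 log2 unit below its slide 1 arrays, and the difference of -1.59 (SE 0.51, adjusted p = 0.0429) was a 3.01-fold fall close to the threshold. It was -1.54 within slide 1 and -1.70 on slide 3, and with slide as a term the adjusted p was 1.7e-05. The call was lost when any of 7 arrays was left out: D0 replicate 1 or 2, D2 replicate 1 or 2, D4 replicate 1, or D8 replicate 1 or 3 (adjusted p between 0.0531 and 0.174). At D2 Acsl1 was 1.17 lower without passing the test (adjusted p = 0.147), and did pass it with slide as a term (-1.28, adjusted p = 0.00028).

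ACSL5 is the isoform of the endoplasmic reticulum and outer mitochondrial membrane best known from intestine and liver. Its probe was at 12.09, 12.18 and 12.34 on the D8 arrays and at 12.40, 12.83 and 12.81 on the D0 arrays. These did not overlap by a small margin, and the difference of -0.48 (SE 0.18, 95% interval -0.87 to -0.09) was not called (adjusted p = 0.0903). It was called with slide as a term (adjusted p = 0.0347), when undetected probes were filtered at detection p 0.01 (adjusted p = 0.0196), with a trended, robust variance model (adjusted p = 0.0233) and without D0 replicate 1 (-0.62, adjusted p = 0.0436). The size depended on scaling, between -0.48 and -0.27 over the alternatives with all arrays or slide 1 alone. At D2 the difference of -0.50 was called in 5 of 14 alternatives (adjusted p between 0.0147 and 0.0400). Over those 14 it ranged from -0.50 to -0.09, with an adjusted p of up to 0.785. The signal before normalization averaged 4516 ± 642 at D8, 5775 ± 1182 at D2 and 5411 ± 1149 at D0 (SD, n = 3 each).

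**Figure D2:**
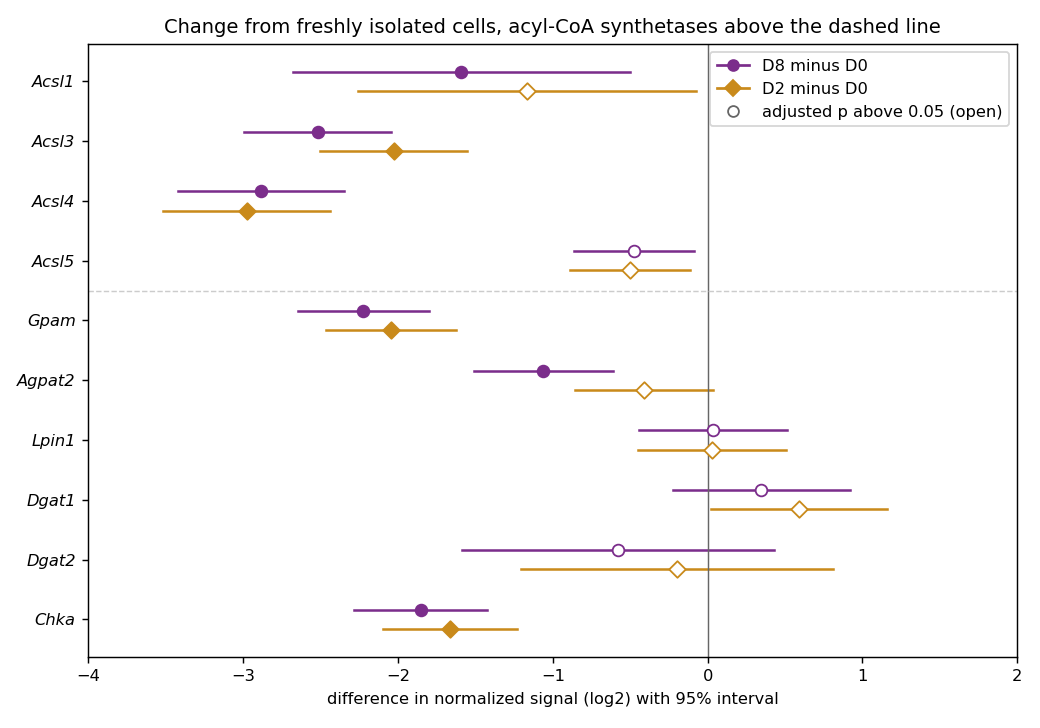
Difference in normalized signal (log2, x axis) from D0 for each gene, at D8 (circles) and D2 (diamonds), with 95% intervals from limma, filled where the adjusted p was at or below 0.05. Acsl4 (-2.89), Acsl3 (-2.52), Gpam (-2.22) and Chka (-1.85) show the largest fitted differences at D8, and the interval of Lpin1 spans 0. Gpam was not detected at D8, and its fall on this scale is bounded only at 3.58-fold or more, which is less than the fitted difference plotted.

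Because the 4 synthetases were read on the same arrays, their unequal change could be tested within each array as the log2 ratio of 2 genes. For bright probes the ratio cancels the array's own scale. For dimmer signals, such as Acsl4 in culture, it does so only in part. A ratio between probes has no meaning as a level, so only its shift is given, for the 12 cultured arrays (D2 to D8) against the 3 arrays of D0. Of 6 pairs, 4 shifted at an adjusted p of 0.05 (exact two-sided permutation test over 455 arrangements, Benjamini-Hochberg over the 6 pairs). The test treats the arrays as exchangeable across days and slides, which the design does not assure. A slide difference in 1 gene of a pair, as in Acsl1, is not cancelled in the ratio. The ratio of Acsl4 to Acsl5 fell by 2.48 and that of Acsl3 to Acsl5 fell by 1.88, both with an exact adjusted p = 0.00659, from an unadjusted 0.0022 that is the smallest this design can give. In both pairs all 12 cultured arrays lay below all 3 of D0. Acsl1 rose relative to Acsl4 by 1.66 (exact adjusted p = 0.00879) and relative to Acsl3 by 1.06 (exact adjusted p = 0.0231), although Acsl1 itself fell, since the other two fell more. The shift of Acsl1 against Acsl3 was no longer called without D0 replicate 1 or D0 replicate 3 (1.15 and 0.61). Acsl3 against Acsl4 shifted by 0.59 (exact adjusted p = 0.0501) and Acsl1 against Acsl5 by -0.82 (exact adjusted p = 0.0989), neither past the threshold. On slide 1 alone the shift of Acsl1 against Acsl5 was called (-0.81, exact adjusted p = 0.0267), which made 5 of the 6 pairs.

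**Figure D3:**
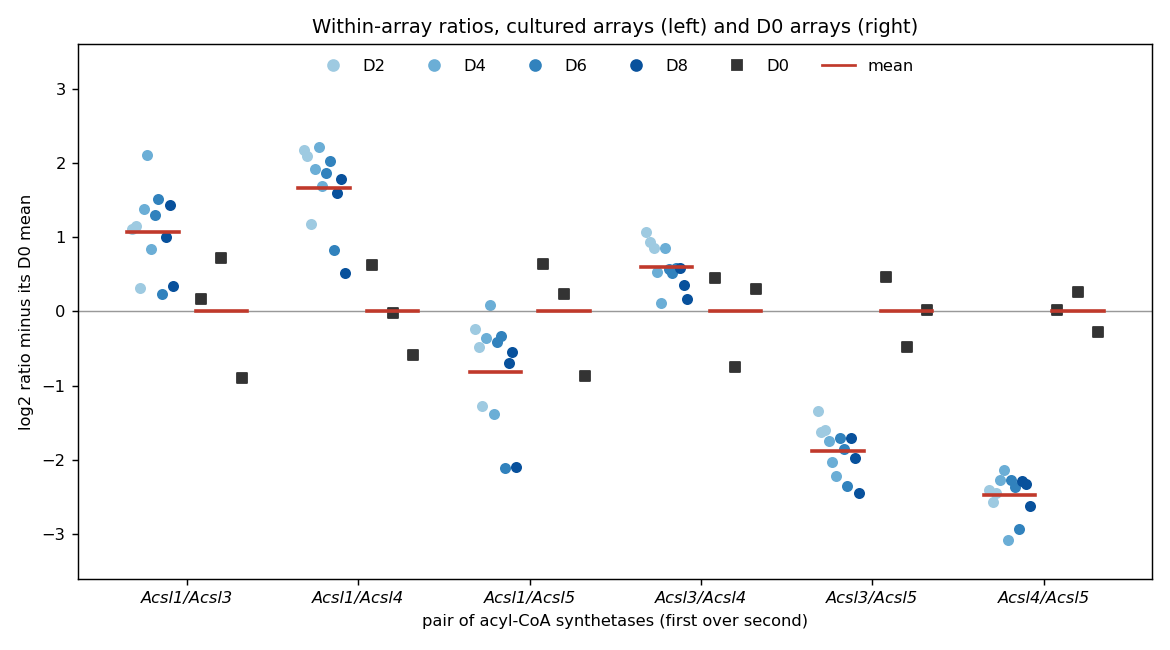
Log2 ratio of each pair of acyl-CoA synthetases within an array, minus the mean of the D0 arrays (y axis), for the 12 cultured arrays (left in each pair, shaded by day) and the 3 arrays of D0 (right), with bars at the means. For Acsl4 over Acsl5 and Acsl3 over Acsl5 every cultured array lies below every D0 array.

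The acyltransferases that take up the acyl-CoA also fell. GPAM is the mitochondrial glycerol-3-phosphate acyltransferase, which commits acyl-CoA to glycerolipid synthesis. Gpam was detected on none of the 3 arrays of D8 (6.06, 5.99 and 6.20) and on all 3 of D0 (8.45, 8.45 and 8.01). As the D8 signal is only a bound, Gpam was at least 3.58-fold lower at D8 on the VSN scale. For each D8 array this took the higher of the probe's own value and the lowest value of a detected probe. Bounds given below for other genes hold on that scale too. The fitted difference was -2.22 (limma, adjusted p = 1.7e-06), and it was -2.43 within slide 1 and -1.81 on slide 3. Over the alternatives it ranged from -2.49 to -1.02, so the size of the fall depended on the processing. Gpam was detected on replicate 1 alone at D2 and at D4 and on no array at D6. The difference was called at D2 (-2.04, adjusted p = 4.1e-06), and a further fall after that could not be seen at this signal.

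AGPAT2 adds the second acyl chain, and its loss in humans causes a generalized lipodystrophy. Agpat2 was at 9.80, 10.14 and 9.84 on the D8 arrays, all below the 10.94, 10.75 and 11.27 of D0. That was a 2.09-fold fall (-1.06, SE 0.21, adjusted p = 0.00211), of -0.88 within slide 1 and -1.42 on slide 3. The day means were 10.99 ± 0.26, 10.58 ± 0.10, 10.05 ± 0.23, 9.86 ± 0.23 and 9.93 ± 0.19 (SD, n = 3 each) over D0, D2, D4, D6 and D8, with 38.7% of the D8 change present at D2. The difference between D2 and D0 was -0.41 (adjusted p = 0.229) and that between D8 and D2 was -0.65 (adjusted p = 0.159), neither called, and the difference in timing between genes was not tested. With the authors' own normalized values the difference between D8 and D2 was called (adjusted p = 0.0475).

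Lpin1, a phosphatidate phosphatase that also acts as a transcriptional coactivator, showed no called difference between any 2 of the days compared. It was dim, detected on 13 of 15 arrays, with 7.22, 7.36 and 6.96 at D8 and 7.26, 7.42 and 6.75 at D0. These overlapped, and the difference was 0.04 with a 95% interval of -0.44 to 0.52.

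The 2 diacylglycerol acyltransferases, which complete triacylglycerol, were bright on every array and were not called. Dgat1 was at 10.68, 10.46 and 10.08 at D8 and at 10.20, 10.31 and 9.67 at D0, which overlapped (0.35, 95% interval -0.22 to 0.92, adjusted p = 0.474). At D2, with 10.79, 10.77 and 10.38, every array lay above those of D0. That difference of 0.59 was not called (adjusted p = 0.163), but it was with slide as a term (0.58, adjusted p = 0.0157) and with the authors' values (0.60, adjusted p = 0.0167). Dgat1 was thus the one member with a higher value in culture that passed a test under some settings.

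Dgat2 was at 10.57, 10.96 and 9.60 at D8 and at 11.39, 11.05 and 10.42 at D0. The days overlapped because the slide 3 array was the lowest of each, and the difference was -0.58 (95% interval -1.59 to 0.43, adjusted p = 0.507). With slide as a fixed term it had an adjusted p of 0.0355, and with slide as a random block 0.143. For Acsl1, Dgat1 and Dgat2 the array on slide 2 or 3 was below both slide 1 arrays on all 5 days, by 1.17, 0.53 and 1.07 on average. Such a pattern was seen for 13.5% of all probes and for 24.5% of those detected on every array, and the part of slide in these genes' values cannot be told apart from that of the replicate cultures. No other of the 10 genes was lower there on all 5 days.

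Choline kinase phosphorylates choline, the first step of phosphatidylcholine synthesis. Chka measured 11.61, 11.47 and 11.79 at D8 and 13.65, 13.29 and 13.49 at D0. The arrays of the days lay apart, and Chka was 3.62-fold lower at D8 (-1.85, SE 0.20, adjusted p = 1.2e-05), with -1.93 within slide 1 and -1.70 on slide 3. At D2 it was already at 11.81 ± 0.16 (SD, n = 3), which was 89.7% of its change at D8 (-1.66, adjusted p = 3.5e-05). Of 9 other genes of the choline and ethanolamine branches with a probe (12 listed), none was called by limma at D8 or at D2 against D0 (at an unadjusted p below 0.05, 1 higher and 1 lower at D8 and 0 at D2). Only 6 of the 9 were detected on any array. Pcyt1a, Pcyt1b and Etnk1 were detected on none, so a change in these genes could go unseen.

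Set side by side, 3 of the 4 synthetases were lower at D8, with a median of -2.05, and 3 of the 6 acylation, phosphatase and choline kinase genes were lower, with a median of -0.82. With so few genes this is a description and the difference between the sets was not tested. At D2 against D0, 4 genes were lower (Acsl3, Acsl4, Gpam and Chka, 2 from each set) and none higher, against 8.25% of all probes lower and 10.3% higher (18.6% called), and the median was -0.83 against -0.02 over all probes. At an unadjusted p below 0.05, 7 passed, of which Dgat1 alone was higher. For 8 of the 10 the arrays of D2 and D0 did not overlap (30.3% of all probes). No gene of the 10 was called between D4 and D2, D6 and D4, D8 and D6 or D8 and D2, where 1.39%, 0%, 0% and 2.58% of all probes were called. At an unadjusted p below 0.05 these comparisons held 1, 0, 0 and 2 of the 10. Of the 6 genes lower at D8, 4 were thus called lower at D2, and over the alternatives 4 to 6 of the 10 were called lower at that day. With slide as a fixed term, 8 of the 10 were lower at D8 (Acsl5 and Dgat2 in addition, 11.7% of all probes) and 5 at D2 (Acsl1 in addition, 9.77% of all probes).

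Across the 15 arrays, Acsl3, Acsl4, Gpam and Chka followed each other with Pearson's r between 0.935 and 0.972 for their 6 pairs, values that rest mainly on the distance of the D0 arrays from the rest. Among 6974 probes, the genes most like Acsl4 were Il6 (an inflammatory cytokine, r = 0.990), Cpm (a membrane carboxypeptidase, 0.984) and Atf3 (a stress-induced transcription factor, 0.983). Those most like Acsl3 were Ereg (the EGF receptor ligand epiregulin, 0.988), Ptp4a1 and St3gal4. Gpam was nearest to Nsun7 (0.991), Jun (an AP-1 subunit, 0.991) and Hhip (a hedgehog-binding protein, 0.990), and Chka to S100g (a calcium-binding protein, 0.983), Aloxe3 and RT1-Da. Acsl1, whose arrays split by slide, was nearest to Xbp1 (0.983), and Agpat2 to F2rl1 (0.945).

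The other genes of the pathway were counted in 11 lists of 106 genes, of which 82 had a probe. Of these 82, 67 were detected on at least 1 array. At D8 against D0, 5 of the 82 were higher and 18 lower, against 9.91% and 8.11% of all probes. At D2 against D0, 10 were higher and 15 lower, against 10.3% and 8.25% of all probes. The higher count at D8 was 8 with quantile normalization and 10 with the authors' values or slide as a term. More of all probes were then higher too, 2671 with quantile normalization and 2877 with the authors' values, against 2233 here. Fatty acid uptake and binding held 2 of 10 lower genes: Cd36, the fatty acid translocase (-3.01, 8.05-fold lower), and Dbi, the acyl-CoA binding protein (-0.95). Cd36 did not fall steadily, with day means of 12.93, 9.99, 11.36, 10.51 and 9.92 over D0, D2, D4, D6 and D8. Among the remaining acyl-CoA synthetases 2 of 7 were lower, with 3 of the 7 detected on an array. The acetyl-CoA synthetase Acss2 fell (-1.16) and stood at 8.29 at D0, 8.36 at D2 and 7.16 at D4. The other call, Acsbg1 (-1.13), was detected on no array and so compares signals below detection. Of the thioesterases, which hydrolyse acyl-CoA, 3 of 7 were lower, and of these Acot2 was at least 4.23-fold lower and Acot1 fell by 2.57, though these near-identical paralogs may share signal.

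None of the 7 other glycerol-3-phosphate and lysophosphatidate acyltransferases was called at D8 (0 at an unadjusted p below 0.05). Within this step Gpam and Agpat2 were thus the genes called at D8. Among the 7, Gpat2 was detected on no array and Gpat3 and Agpat4 on 2 each, so a fall in these dim probes could go unseen. At D2 Agpat1 was higher (1.00). Of the phosphatidate phosphatases beside Lpin1, 2 of 4 were lower at D8: Plpp3 (-2.79, adjusted p = 1.3e-05), which acts on lipid phosphates at the cell surface, and Lpin2 (-1.34). In the CDP-diacylglycerol branch, which leads from phosphatidate to phosphatidylinositol and phosphatidylglycerol, Cds1 was lower (-2.39) and Cdipt higher (1.39) among 4 genes. Lpcat1, which remodels surfactant phosphatidylcholine, was 5.43-fold lower, and Mboat1, another lysophospholipid acyltransferase, was 2.79-fold higher, the 2 calls among 5 genes. Gpd1, which supplies glycerol-3-phosphate, was lower (-1.80), the single call among 4.

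Of 12 lipid droplet and lipolysis genes, Mgll (monoacylglycerol lipase) was higher (1.76), and Cidea (-1.29) and the droplet coat gene Plin2 (-0.82) were lower. Of 13 regulators, 2 were higher and 4 lower: Insig2, which retains SREBP in the endoplasmic reticulum, was higher (1.15), Cebpa fell by 3.29, Ppargc1a was at least 2.87-fold lower, and Srebf1, which encodes the lipogenic SREBP1, fell by 1.83. Srebf1 was named after its values were seen. At D2 against D0, Srebf2 was higher (1.03), as were Acot13 (1.17), Plpp2 (1.04), Lpcat4 (1.02) and Plin3 (0.59). Fabp3 was lower at D2 (-2.43). None of these genes was called at D8 against D0, and Lpcat4 was detected on no array of D0. Of the adipocyte markers, Adipoq, Lep and Retn were detected on no array, Cidec was detected on 1 array of D8 and 3 of D0, and Cfd was detected on all 3 arrays of both days. The list's summed signal ranged from 1800 to 2829 at D8 and from 959 to 1108 at D0. Summed signals of the macrophage and leukocyte list ranged from 6537 to 12602 at D8 and from 2820 to 5790 at D0, those of the fibroblast list from 9462 to 53332 at D8 and from 2943 to 4125 at D0. Other lists went the opposite way. The airway list ranged from 2318 to 5650 at D8 and from 38169 to 45694 at D0. The erythroid list ranged from 645 to 1384 at D8 and from 32240 to 49965 at D0. The endothelial list ranged from 627 to 692 at D8 and from 891 to 1162 at D0. The part of all these cells in the members' values was not tested.

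**Figure D4:**
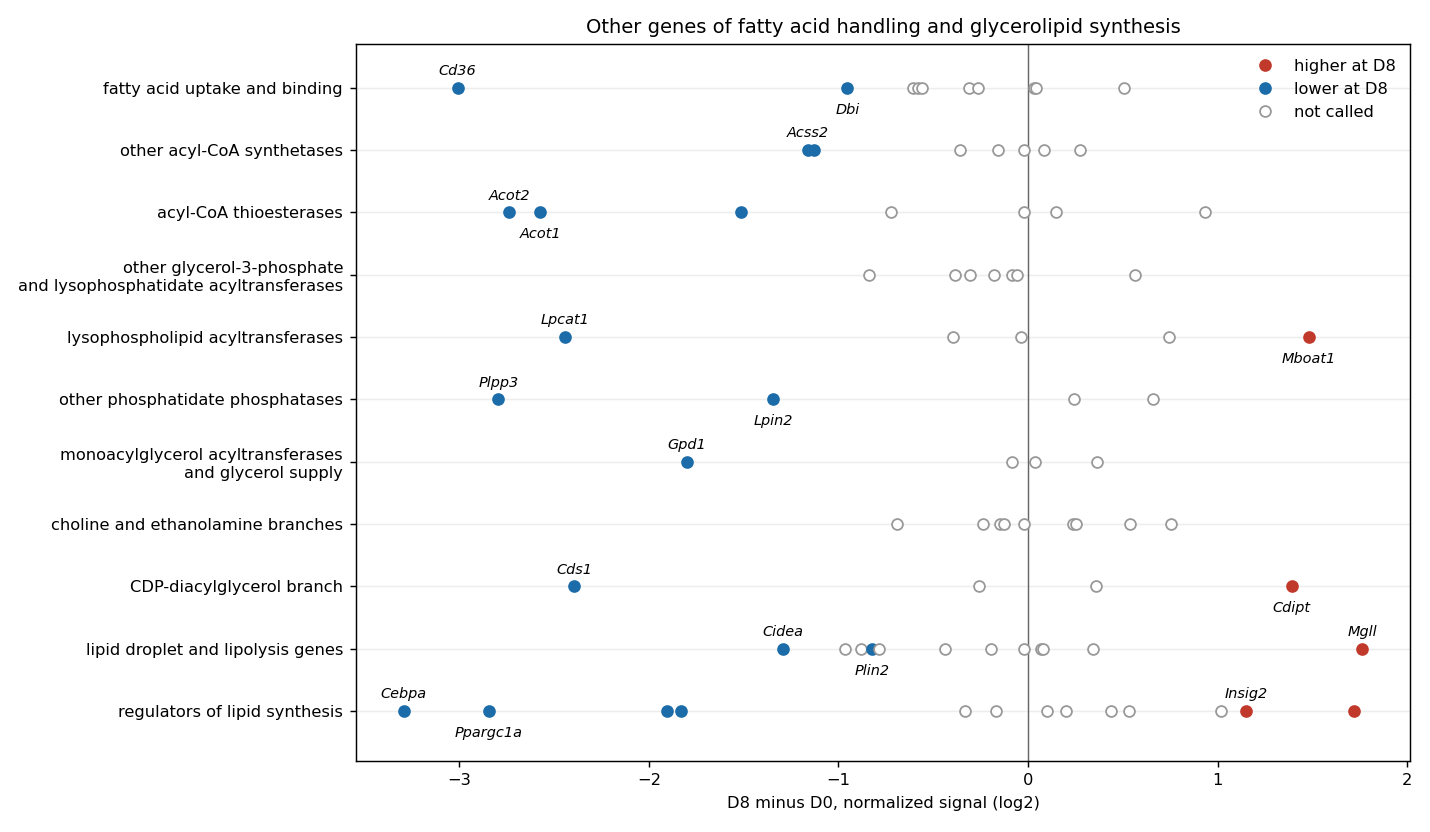
Difference between D8 and D0 in normalized signal (log2, x axis) for the 82 other genes of 11 lists (rows), each point a gene, coloured where called higher or lower and open where not called, with names for those the text names by rule. Lower calls (18) outnumber higher calls (5), against 8.11% of all probes lower and 9.91% higher. The higher count was 8 with quantile normalization and 10 with the authors' values, slide as a fixed term or a detection filter. Of the 82 genes, 67 were detected on an array. The choline and ethanolamine row holds no call among its 9 genes, of which 6 were detected on an array.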

How the data were processed

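Per the labels, cRNA of 15 rat cell samples was hybridised to Illumina arrays. The authors deposited raw BeadStudio signal intensity and detection p-values for 22523 probes, and their own normalized log2 values, which matched the logarithm of a linearly rescaled raw intensity (largest difference 1.4e-07). The study normalized by VSN in R 2.11.1. Here VSN was refitted to the raw intensities (asinh, profile likelihood, trimming quantile 0.9, 7 rounds, 5 slices) in R 4.3.3, and limma 3.58.1 fitted 1 mean per day to all probes, with Benjamini-Hochberg adjustment at 0.05. A probe was detected at p below 0.01, and no filter was applied in the main analysis. Gene names came from the platform's table. The normalization and the fit of D8 against D0 were also run on simulated data. Precision was set by 3 arrays per day. Per-sample columns not used numbered 0. Members and lists were chosen with earlier results of these data known. Named beside the members were, per list, up to 2 genes per direction with the largest called difference from D0 at D8 and at D2 if the brighter day detected them on each of its 3 arrays, and the 3 genes most correlated with a member. Alternatives covered normalization, filters, slide as a block, slide 1 alone, single arrays left out, the variance model, the threshold and a regression on day. Promoter windows came from RefSeq (GRCr8).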

Additional observations from a re-analysis of the deposited data

How the results depend on the processing

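Acsl3, Acsl4, Gpam, Agpat2 and Chka stayed lower at D8 than at D0 under all 15 alternatives and without any single array (adjusted p at most 0.0357), and Acsl3, Acsl4, Gpam and Chka at D2 under all 14. Acsl1 was not called with median scaling (-1.12, adjusted p = 0.228), with only the days compared, at an adjusted p of 0.01 or by regression on day. Dgat1 made the count of genes higher at D2 1 with quantile normalization, neqc, the authors' values and slide as a fixed term, as a group term or as a random block, and Agpat2 made the count lower at D8 against D2 1 with the authors' values and with a filter at detection p 0.01. Without single arrays, 5 to 6 genes were lower at D8 and 4 to 5 at D2, and 3 to 5 of the 6 ratios shifted. Lpin1 changed sign at D8 on slide 1 alone (-0.053) and by regression on day (-0.041), and at D2 with quantile normalization (-0.0063), slide as a fixed term (-0.094), slide as a random block (-0.037) and slide 1 alone (-0.26), and it ranged from -0.16 to 0.17 at D8 and -0.17 to 0.17 at D2 without single arrays. Dgat2 at D2 changed sign with median scaling (0.18) and ranged from -0.47 to 0.11 without single arrays. Of the other pathway genes, higher at D8 were 8 with quantile normalization and 10 with the authors' values, slide as a fixed term or the filter. Of all probes, 2671 with quantile normalization and 2877 with the authors' values were higher at D8, against 2233 here. Of the pathway genes, 1 was higher at D8 against D2 with neqc, slide as a fixed term or the filter. Median scaling gave 2823 probes higher and 1202 lower at D2, against 2324 and 1859 here. No paired analysis was possible because the labels give the arrays no replicate numbers that could pair them. Slide was fitted as a batch instead, with 8, 8 and 7 genes lower at D8 and 5, 6 and 6 at D2 for slide as a fixed term, as a group term and as a random block. In the same order these fits called 25.9%, 25.3% and 25.2% of all probes in either direction at D8. At D2 they called 21.9%, 25.5% and 22.9%. The causes were not tested. With 3 arrays a day, differences under about the widths of the intervals above cannot be resolved, and dim probes such as Gpam at D8 carry only bounds.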
